A study of Mus musculus with 6 samples.

Results

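The genes of oxidative phosphorylation encode the subunits of respiratory complexes I to IV and of ATP synthase (complex V). They were examined here in polyadenylated RNA from mouse hearts at embryonic day 16.5 (E16.5), of which the epicardium with the subepicardium beneath it was dissected. Members were taken by symbol: the Nduf families a, b, c, s and v, Sdha to Sdhd, the Uqcr genes, Cyc1, the Cox4 to Cox8 genes, the Atp5 genes, and the protein-coding genes of mitochondrial DNA. This gave 95 of the 14549 genes measured, 82 in the nuclear genome and 13 in the mitochondrial genome. Complex I had 42 members, complex II 4, complex III 10, complex IV 19 and complex V 17. Another 3, Ndufa4l2, Cox7a2l and Atp5s, matched by name only: the first is a paralog of a subunit, the second a factor that joins complexes III and IV, and the third is known as coupling factor B.

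Complexes I to IV sit in the inner mitochondrial membrane and pass electrons from NADH and succinate to oxygen, and complex V uses the proton gradient that complexes I, III and IV build to make ATP. The subunits of complexes I, III, IV and V come from both genomes, whereas complex II is encoded by nuclear genes alone. Cardiac muscle is rich in these complexes and has its own isoforms of several complex IV subunits, while epicardium is a thin mesothelial sheet that covers the heart muscle.

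The comparison was between 3 control libraries (1, 2 and 4), from embryos labelled wild-type, and 3 dKO libraries (1, 2 and 3), from Meis1fl/fl;Meis2fl/fl;WT1-Cre embryos, in which both Meis genes are deleted where WT1-Cre is or has been active, chiefly the epicardium and its descendants. Each library was a pool of 2 dissected hearts of 1 genotype, and the labels do not say whether the wild-type embryos carried floxed alleles or the Cre. Values are normalised read counts, scaled to the size of each library. Changes are dKO minus control on the scale of log2(value + 1), tested with limma over all genes with Benjamini-Hochberg adjustment at 0.05, and "rose" or "fell" is used of genes that passed. P-values rest on the spread between pools, with the variance of each gene drawn toward a trend over expression level.

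Between 13146322 and 20635676 reads per library were recovered from the table. Meis2 fell, with normalised read counts of 86.1, 85.6 and 63.3 in controls 1, 2 and 4 and 44.5, 34.8 and 44.5 in dKO 1, 2 and 3, while Meis1, at 63.4 to 106 in the controls and 58.5 to 74.1 in the dKO libraries, did not pass (log2 change -0.20, limma adjusted p = 0.521). These values cover all exons and not the deleted part, so they check the labels only in part. The 12 epicardial markers summed to 1980.4 to 2759.8 in the controls and to 334 to 404 in the dKO libraries. Ddx3y, which is Y-linked, exceeded Xist in control 4, dKO 1 and dKO 2 and not in the other libraries. Control 1 and dKO 1 stood apart from their groups for the members: control 1 was the lowest of the 6 libraries in 90 of 95 members, against 25.0% of all genes, and dKO 1 was the highest in 84 of 95, against 21.8% of all genes. Results are therefore also given without both.

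Nuclear subunit genes of all 5 complexes were higher in the dKO libraries. Of the 82 nuclear members, which include the 3 matched by name, 61 rose and 1 fell, where 9.81% of all genes rose and 12.2% fell, and the median change was 0.84 against 0.002 over all genes. Groups did not overlap, with dKO higher, in 70 of the 82, against 19.3% of all genes. By complex, 25 of 35 nuclear genes rose in complex I (median 0.74), 4 of 4 in complex II (0.90), 8 of 9 in complex III (1.04), 10 of 16 in complex IV (0.88) and 14 of 15 in complex V (0.92). These medians were not tested against one another. Summed over the 82 genes, the level was 8973, 14888 and 14946 in controls 1, 2 and 4 and 26210.5, 22613 and 22775 in dKO 1, 2 and 3. All 3 dKO libraries lay above all controls, and control 1 lay far below the other controls. Without control 1 and dKO 1, 42 nuclear members rose, where 9.82% of all genes did, all of them among the 61, and the median was 0.46. Leaving out dKO 1 alone left 26, where 8.08% of all genes rose, and leaving out dKO 3 alone left 40, where 6.17% did. With edgeR on the recovered reads 48 rose, all among the 61, where 8.96% of all genes did. With DESeq2 on the same reads 69 rose, among them all 61, where 11.1% of all genes did. In bulk RNA, a larger number of cells of a type and more RNA per cell cannot be told apart.

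**Figure D1:**
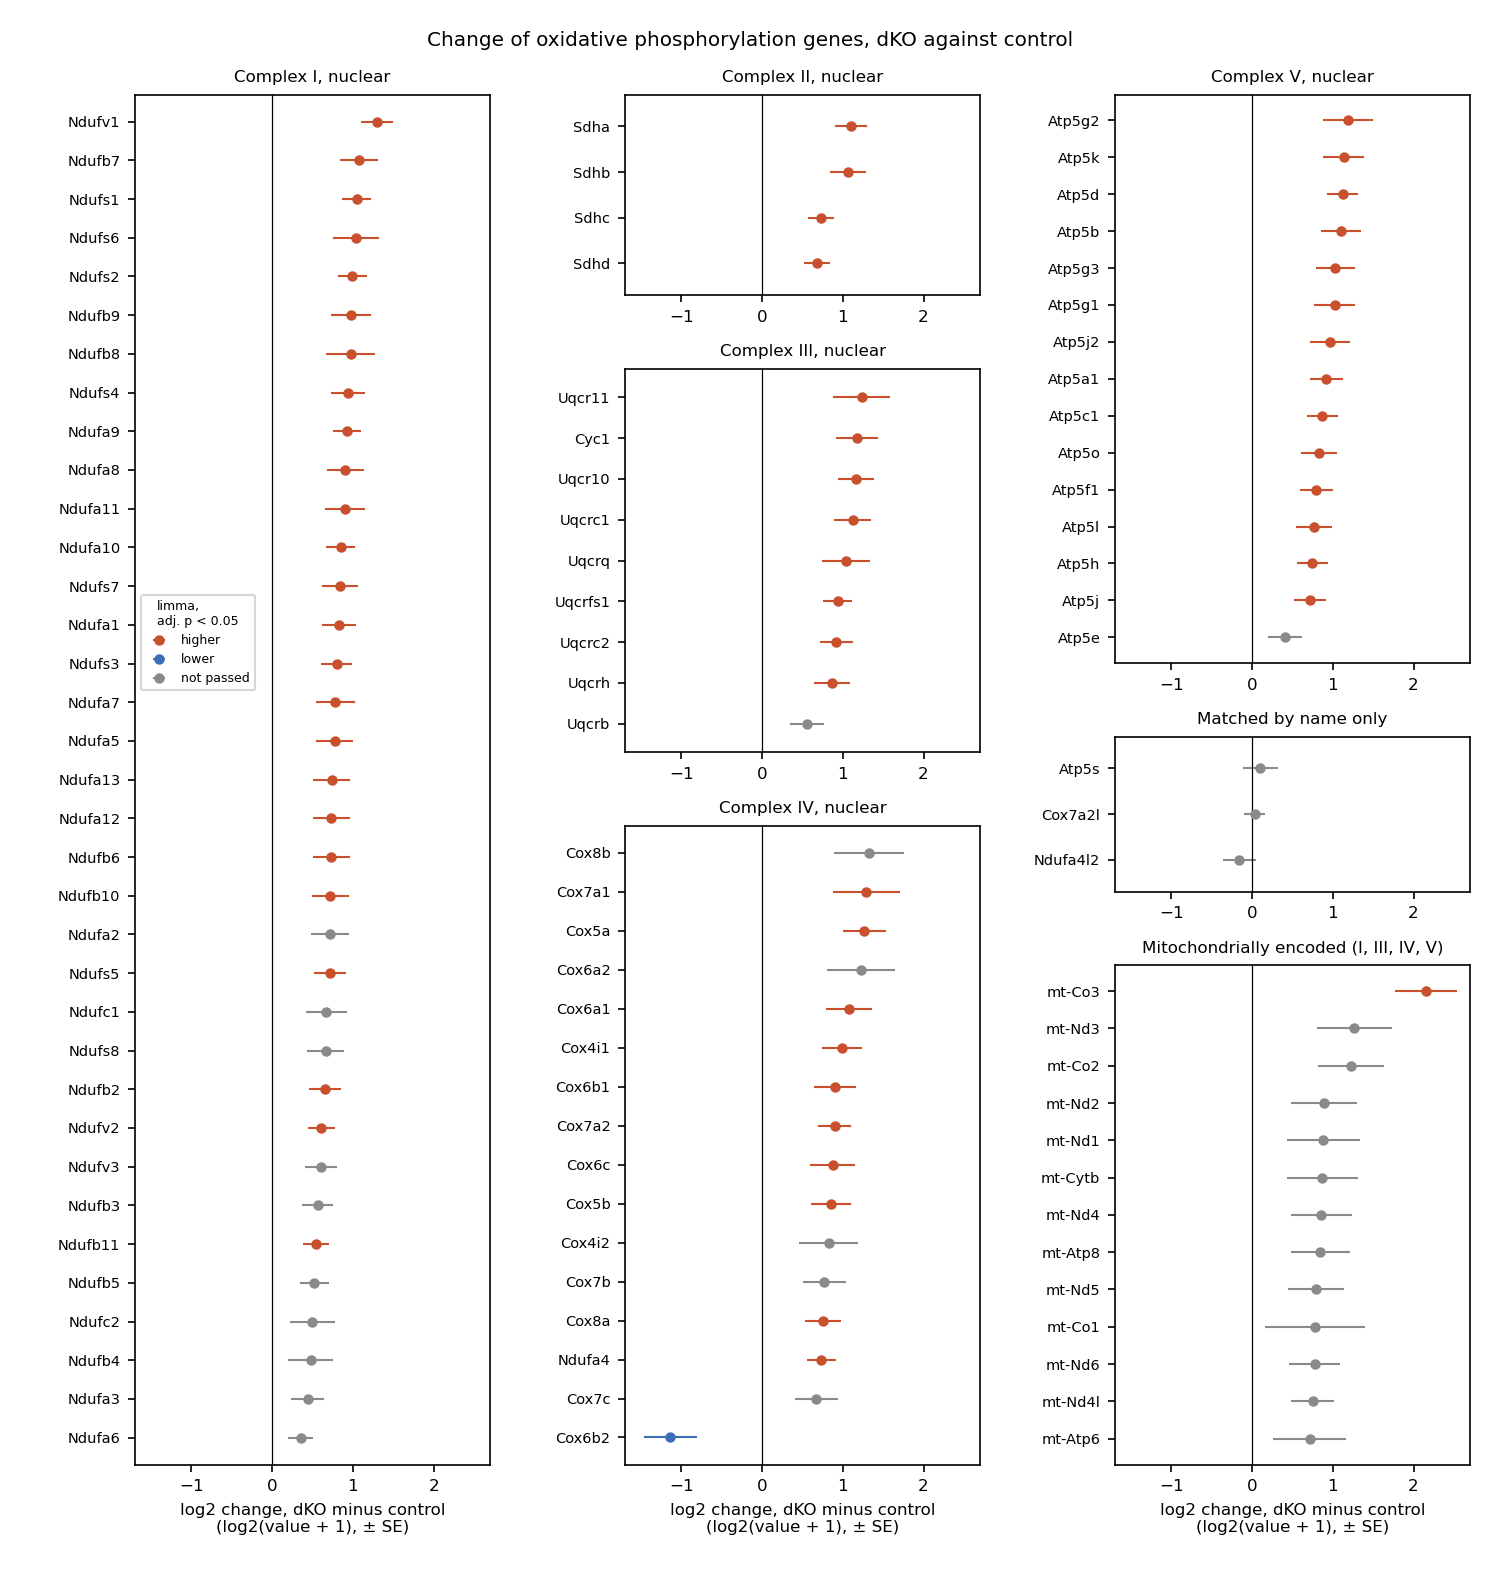
Log2 change of each member (dKO minus control, on log2(value + 1), with the SE of the limma fit), by complex and genome, ordered within each panel. Red points passed at an adjusted p under 0.05 and were higher, blue points were lower and grey points did not pass. All nuclear subunits except Cox6b2 lie right of 0, the 3 genes matched by name only lie near 0, and mt-Co3 lies apart from the other mitochondrially encoded genes.

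Complex I takes electrons from NADH in a peripheral arm and pumps protons in a membrane arm. Its nuclear core genes rose in 6 of 7 cases and its accessory genes in 19 of 28. Ndufv1 (chromosome 19, 4007384 to 4012806), which encodes the flavoprotein that oxidises NADH, had 52.0, 71.2 and 89.0 in controls 1, 2 and 4 and 208, 156 and 156 in dKO 1, 2 and 3. Every dKO library lay above every control, with a log2 change of 1.30 (SE 0.19, limma adjusted p = 0.00132). Ndufs1, the large iron-sulphur subunit beside it, went from 187, 276 and 313 to 539, 554 and 481 (log2 change 1.05, SE 0.18, limma adjusted p = 0.00293). Here dKO 1 was not the highest library. Ndufb7, an accessory subunit of the membrane arm, had much lower counts, 7.13, 9.73 and 11.8 against 26.5, 19.0 and 17.95 (1.07, SE 0.24, limma adjusted p = 0.00926). The smallest changes were in the accessory genes Ndufa6 (0.35) and Ndufa3 (0.44), which did not pass. Ndufa6 was at 59.1, 84.9 and 68.7 in the controls against 96.4, 94.3 and 79.5 in the dKO libraries, so the groups overlapped. Without control 1 and dKO 1, 12 of the 35 nuclear genes rose and the median was 0.36, with a change of 0.96 in Ndufv1 and 0.81 in Ndufs1. For each kilobase of exonic length, the controls ran from 2.11 in Ndufb7 to 140.5 in Ndufb9, a gene named here for its level. This length is that of all annotated exons of a gene together, so levels per kilobase also depend on the annotation.

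Complex II, succinate dehydrogenase, also belongs to the citric acid cycle. Its 4 genes rose. Sdha (chromosome 13, 74322254 to 74350280), the flavoprotein that oxidises succinate, was at 378, 593 and 651 in controls 1, 2 and 4 and at 1036, 1218 and 1144 in dKO 1, 2 and 3 (log2 change 1.10, SE 0.20, limma adjusted p = 0.0038). Sdhb, its iron-sulphur partner, went from 70.1, 132 and 132 to 249, 214 and 212 (log2 change 1.06, SE 0.22, limma adjusted p = 0.00713). Both catalytic genes changed by more than the membrane anchors Sdhc (0.73, SE 0.16) and Sdhd (0.68, SE 0.16), a difference that was not tested. The median over the 4 genes was 0.88, 0.85 and 0.84 above the control mean in dKO 1, 2 and 3, so that dKO 1 did not stand apart in this complex. All 4 genes also rose without control 1 and dKO 1, with a median of 0.61.

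Complex III passes electrons from ubiquinol to cytochrome c. Cyc1 (chromosome 15, 76343523 to 76346260), which encodes its cytochrome c1, had 75.0, 149 and 179 in the controls against 303, 277 and 279 in the dKO libraries (log2 change 1.18, SE 0.26, limma adjusted p = 0.00991). The 2 core protein genes Uqcrc1 and Uqcrc2 rose by 1.12 and 0.92 and the Rieske iron-sulphur gene Uqcrfs1 by 0.94; these 3 are named for their role, with their values known. Among the small subunits, Uqcr11 (chromosome 10, 80402997 to 80406830) rose from 9.54, 16.3 and 26.1 to 62.3, 31.8 and 29.9 (log2 change 1.23, SE 0.35, limma adjusted p = 0.0315). In this gene dKO 1 held about double the level of the other dKO libraries, and without control 1 and dKO 1 its change was 0.55 and did not pass (limma adjusted p = 0.0954). Uqcr10 rose by 1.16 (SE 0.22) and the hinge protein gene Uqcrh by 0.87 (SE 0.22). Uqcrb, at 133, 262 and 199 against 299, 269.5 and 274, did not pass (log2 change 0.56, SE 0.21, limma adjusted p = 0.0831). Of the 9 nuclear genes 6 rose without control 1 and dKO 1.

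Complex IV, cytochrome c oxidase, reduces oxygen, and its nuclear genes encode the accessory subunits around a mitochondrially encoded core. Cox5a (chromosome 9, 57521274 to 57532426) went from 112, 222 and 214 to 572, 354 and 369 (log2 change 1.27, SE 0.27, limma adjusted p = 0.00767), with no overlap of the groups. In Cox5a, 12.8% of the exonic bases overlap another annotated gene. Cox4i1, the widely expressed form of the largest nuclear subunit, rose by 0.99 (SE 0.24), and Ndufa4, first assigned to complex I and now counted here, by 0.74 (SE 0.18). Cox7c, at 64.8, 148 and 109.6 against 201, 131 and 163, overlapped between groups and did not pass (0.67, SE 0.27). Without control 1 and dKO 1, 7 of 16 nuclear genes rose and the median was 0.43.

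Cox6b2 (chromosome 7, 4751792 to 4753094), known as the testis form of subunit VIb, was the 1 member that fell. It had 3.61, 6.22 and 7.08 in controls 1, 2 and 4 and 1.96, 1.22 and 2.85 in dKO 1, 2 and 3, so every dKO library lay below every control (log2 change -1.14, SE 0.32, limma adjusted p = 0.0305). It also fell without control 1 and dKO 1 (-1.39, limma adjusted p = 0.0144), but the call was lost when control 2, control 4, dKO 1 or dKO 2 was left out.

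Complex V makes ATP in a soluble head, F1, that is joined to a membrane ring of c subunits and is held by a peripheral stalk. Of the 5 F1 genes 4 rose, as did all 3 c-ring genes, all 4 stalk genes and the 3 nuclear genes of the other membrane subunits. Atp5b, the catalytic beta subunit, had the highest control level per kilobase of exonic length of the nuclear members. Atp5b had 1286, 1915 and 2281 normalised read counts in the controls, against 3321, 4197 and 3998 in the dKO libraries (log2 change 1.10, SE 0.25, limma adjusted p = 0.0101). Atp5a1, the alpha subunit, went from 735, 1149.8 and 1179.7 to 1928, 1935 and 1811 (log2 change 0.92, SE 0.20, limma adjusted p = 0.00971). These 2 genes are named for their level, with their values known. Atp5d (delta, chromosome 10, 80138632 to 80145818) rose by 1.12 (SE 0.19) and Atp5k (subunit e, chromosome 5, 108433244 to 108434448) by 1.13 (SE 0.26). Atp5j, in the stalk, rose by 0.71 (SE 0.20), with 12.7% of its exonic bases shared with Gabpa. Atp5e (epsilon), at 57.6, 105 and 94.5 against 131, 93.9 and 109, overlapped between groups and did not pass (log2 change 0.41, SE 0.21, limma adjusted p = 0.209). Of the 15 nuclear genes 13 rose without control 1 and dKO 1, with a median of 0.57, and Atp5b changed by 0.97.

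The 3 genes matched by name only were close to 0. Cox7a2l was at 167, 204 and 158 in the controls against 197, 174 and 168 in the dKO libraries (0.03, SE 0.13). Ndufa4l2 changed by -0.16 (SE 0.21) and Atp5s by 0.10 (SE 0.21). With limma 0 of the 3 passed, and also 0 at an unadjusted p under 0.05 and 0 with edgeR or DESeq2.

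The 13 mitochondrially encoded genes are transcribed from both strands of mitochondrial DNA as long precursors that are cut into single messages. They summed to 53469, 83569 and 99004 in controls 1, 2 and 4 and to 219888, 106959 and 121675 in dKO 1, 2 and 3. As a share of each library that is 5.78%, 8.50% and 10.02%, and 19.3%, 10.99% and 12.1%. These sums and shares leave out 5 copies of such genes on chromosome 1, described below. Those copies summed to 21402.5, 33152 and 39656 in controls 1, 2 and 4 and to 81256, 32120 and 39513 in dKO 1, 2 and 3. Among the mitochondrially encoded genes, control 1 was the lowest and dKO 1 the highest library in 13 of 13. The median change was 0.86, close to that of the nuclear members. The SEs were 0.27 to 0.62, against a median of 0.23 in the nuclear members, and only mt-Co3, of the catalytic core of complex IV, rose. Because of the variance trend, these SEs do not give the spread of each gene alone. In mt-Co1, the subunit that holds the oxygen-binding site, counts were 21710.4, 30188 and 36862 against 74279.6, 38459.9 and 42839 (log2 change 0.78, SE 0.62, limma adjusted p = 0.409). In mt-Nd1, a core subunit of the membrane arm of complex I, they were 6235, 11048 and 12349.6 against 28018, 12531 and 15134 (0.88, SE 0.45). In mt-Nd6, which lies on the other strand, they were 1157, 2010.3 and 2314 against 4425, 2351 and 2598 (0.78, SE 0.31). mt-Cytb, of complex III, changed by 0.87 (SE 0.44). mt-Nd2, mt-Nd4, mt-Nd5 and mt-Nd4l, of complex I, changed by 0.89, 0.86, 0.79 and 0.75, and mt-Atp8, which overlaps mt-Atp6 in 21.1% of its bases, by 0.84. These 9 genes did not pass. Without control 1 and dKO 1 the median was 0.28.

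The change of mt-Co3 depended on how the reads of 2 identical sequences were counted. A stretch of chromosome 1 (24611535 to 24615565 on GRCm38, minus strand) carries 5 unprocessed pseudogenes that are copies of mitochondrial genes, and all 5 have their own rows. Gm28437 matches mt-Co3 over 783 bases without a mismatch, Gm10925 matches mt-Atp6 over 678 and Gm28661 matches mt-Co2 over 681, also without one. Gm28439 matches 876 bases, 63.6% of the transcript of mt-Nd4. Gm28438 matches mt-Nd3 over 345 bases with 1 mismatch, T3C, counted from the first base of mt-Nd3, with the base of mt-Nd3 first. The following 60-base stretches, from the GENCODE M21 transcripts, show how alike they are. The first pair is mt-Co3 (chrM:8968-9027, plus strand) and Gm28437 (chr1:24613551-24613610, minus strand), within the single exon of each. The second pair is the start of mt-Nd3 (chrM:9459-9518, plus strand) and of Gm28438 (chr1:24613060-24613119, minus strand), with the mismatch in capitals.
mt-Co3: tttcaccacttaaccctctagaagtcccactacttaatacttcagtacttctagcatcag
Gm28437: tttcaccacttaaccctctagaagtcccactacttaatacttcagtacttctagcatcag
mt-Nd3: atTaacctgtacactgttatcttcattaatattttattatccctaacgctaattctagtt
Gm28438: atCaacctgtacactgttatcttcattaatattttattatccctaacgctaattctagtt

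In controls 1, 2 and 4, mt-Co3 itself had 1157, 2161 and 2130.0 normalised read counts and Gm28437 had 6823, 10061 and 13390.5. In dKO 1, 2 and 3, mt-Co3 had 13546, 4886 and 7142 and Gm28437 had 24795, 9312 and 10286. Of the 2 together, mt-Co3 thus held 14.5%, 17.7% and 13.7% in the controls against 35.3%, 34.4% and 41.0% in the dKO libraries. The groups did not overlap in this share. Taken alone, mt-Co3 changed by 2.16 (SE 0.39, limma adjusted p = 0.00341), and with Gm28437 added by 0.88 (SE 0.49, limma adjusted p = 0.229). A smaller shift of the same kind was seen for mt-Co2, which held 28.8%, 32.5% and 32.4% of its pair in the controls against 44.2%, 44.3% and 39.1% in the dKO libraries. Its change was 1.22 (SE 0.41) alone and 0.78 (SE 0.48) with Gm28661. For mt-Atp6 the share was 8.77%, 14.4% and 17.1% in the controls against 10.1%, 14.3% and 11.2% in the dKO libraries, and its change went from 0.71 to 0.86. For mt-Nd3 the change went from 1.26 to 0.99. Gm13340, a copy of mt-Co1 on chromosome 2, was at 0.340 to 2.14 and left mt-Co1 at 0.78.

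With the copies added, an alternative chosen after the data were seen, the 13 mitochondrially encoded genes changed by 0.75 to 0.99 and 0 passed with limma, where 9.81% of all genes rose. At an unadjusted p under 0.05, 6 were higher, where 16.8% of all genes were. On the genes alone edgeR called 2 higher (mt-Co3 and mt-Co2) and DESeq2 8, where DESeq2 called 11.1% of all genes higher. Without control 1 and dKO 1, mt-Co3 changed by 1.46 alone (limma adjusted p = 0.000598) and by 0.19 with Gm28437 (limma adjusted p = 0.717). Levels per kilobase moved too: the control mean of mt-Co3 was 2316 per kilobase alone, against 19150.1 for mt-Co1, and 15188 with Gm28437. Whether any of these reads came from the chromosome 1 copies cannot be told apart with identical sequences.

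**Figure D2:**
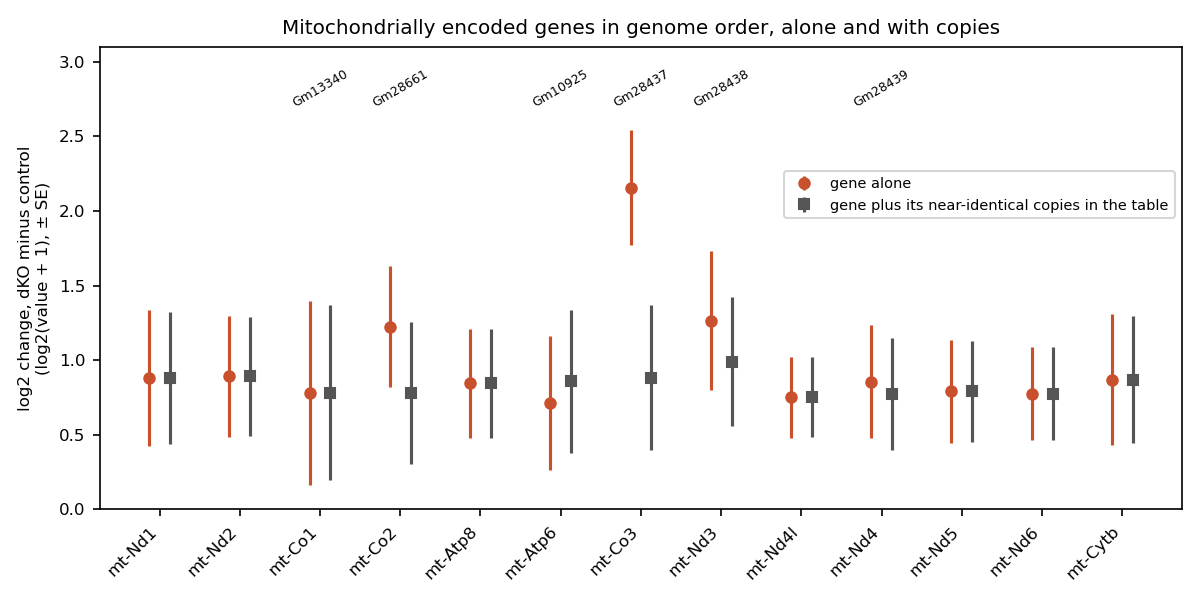
Log2 change (dKO minus control, on log2(value + 1), with SE) of the 13 mitochondrially encoded genes in the order of the mitochondrial genome, alone (red circles) and with the near-identical copies named above them added (grey squares). The copies bring mt-Co3 from 2.16 to 0.88, and all 13 genes then lie between 0.75 and 0.99.

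Some nuclear members also have near-identical copies with rows of their own. Adding them changed no call among the 82. Ndufa12, an accessory subunit of complex I named for its copy, changed by 0.74 (limma adjusted p = 0.0462) alone and by 0.91 (limma adjusted p = 0.0246) with the processed pseudogene Gm15920, which matches it at 99.5% identity over 402 bases. Gm15920 (chromosome 5, 130188395 to 130188796) was at 0.0309, 0.479 and 0.0317 in the controls, where the lowest value the table can hold is 0.0309 to 0.0319, and at 29.1, 2.48 and 17.4 in the dKO libraries. Cox7c changed by 0.67 alone and by 0.73 with its copies Gm10012 and Gm12338.

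Isoform use was examined as the ratio of 8 pairs of paralogous genes, as log2 of (first + 1) over (second + 1) in each library. With 3 libraries against 3, the exact two-sided permutation test cannot give a p below 0.1, so no pair could pass. In 6 of the 8 pairs the groups overlapped. Of the 3 heart and skeletal muscle isoforms of complex IV, Cox7a1 rose by a narrow margin and Cox6a2 and Cox8b narrowly did not pass. With DESeq2 all 3 were higher (adjusted p = 0.0156 for Cox7a1, 0.0244 for Cox6a2 and 0.0182 for Cox8b), where 11.1% of all genes were. With edgeR their adjusted p was 0.0895, 0.105 and 0.0785. Cox7a1 (chromosome 7, 30184144 to 30186078) had 8.24, 34.4 and 29.3 in the controls against 60.02, 48.9 and 46.6 in the dKO libraries (log2 change 1.29, SE 0.41, limma adjusted p = 0.0487). Control 1 was far below every other library, and without control 1 and dKO 1 its change was 0.57. Its call was lost with edgeR (adjusted p = 0.0895) and when dKO 1, dKO 2 or dKO 3 was left out (limma adjusted p = 0.126, 0.101 and 0.0916). Cox7a2, its partner, rose by 0.90 (SE 0.20), and their log2 ratio was -3.09 ± 0.66 (SD, n = 3) in the controls and -2.69 ± 0.17 (SD, n = 3) in the dKO libraries (exact permutation p = 0.6). Cox6a2 was at 6.70, 22.8 and 26.6 against 52.4, 39.7 and 28.4, with dKO 3 close to control 4, and did not pass (1.22, SE 0.42, limma adjusted p = 0.0649), while its partner Cox6a1 rose by 1.07 (SE 0.28). Their ratio was -2.85 ± 0.53 in the controls and -2.70 ± 0.35 in the dKO libraries (SD, n = 3, exact permutation p = 0.8). Cox8b (chromosome 7, 140898945 to 140900446) was at 1.70, 4.75 and 7.27 against 19.8, 8.40 and 9.23 (1.32, SE 0.43, limma adjusted p = 0.0529) beside a rise of 0.75 in Cox8a, with ratios of -4.74 ± 0.49 and -4.17 ± 0.27 (SD, n = 3, exact permutation p = 0.3). On exonic length, each of these 3 muscle isoforms stayed below its partner in both groups, for instance Cox7a1 at 44.8 and Cox7a2 at 198 per kilobase in the controls, then 96.9 and 360.5.

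In both pairs without overlap the ratio was lower in the dKO libraries. The ratio of Cox6b2 to Cox6b1 was -5.01 ± 0.11 in the controls and -7.05 ± 0.55 in the dKO libraries (SD, n = 3, exact permutation p = 0.1, adjusted over the 8 pairs 0.4). Cox6b1 rose by 0.90 (SE 0.26) while Cox6b2 fell. The ratio of Ndufa4l2 to Ndufa4 was -4.39 ± 0.44 and -5.29 ± 0.28 (SD, n = 3, exact permutation p = 0.1, adjusted over the 8 pairs 0.4), where Ndufa4 rose and Ndufa4l2 did not pass. Cox4i2, the form of subunit IV known from lung and from low oxygen, was at 2.01, 1.69 and 2.13 in the controls against 8.17, 3.07 and 2.75 in the dKO libraries (0.82, SE 0.36, limma adjusted p = 0.136). In Cox4i2 dKO 1 alone was well above the rest. The 3 c-ring genes, which encode the same mature protein, rose by 1.02 (Atp5g1), 1.19 (Atp5g2) and 1.03 (Atp5g3), and their ratios differed by -0.17 (Atp5g1 to Atp5g2) and -0.01 (Atp5g1 to Atp5g3), both with an exact permutation p of 0.9. Atp5g3 held most of the c-ring signal, with 237 per kilobase in the controls against 15.1 for Atp5g1 and 3.05 for Atp5g2.

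**Figure D3:**
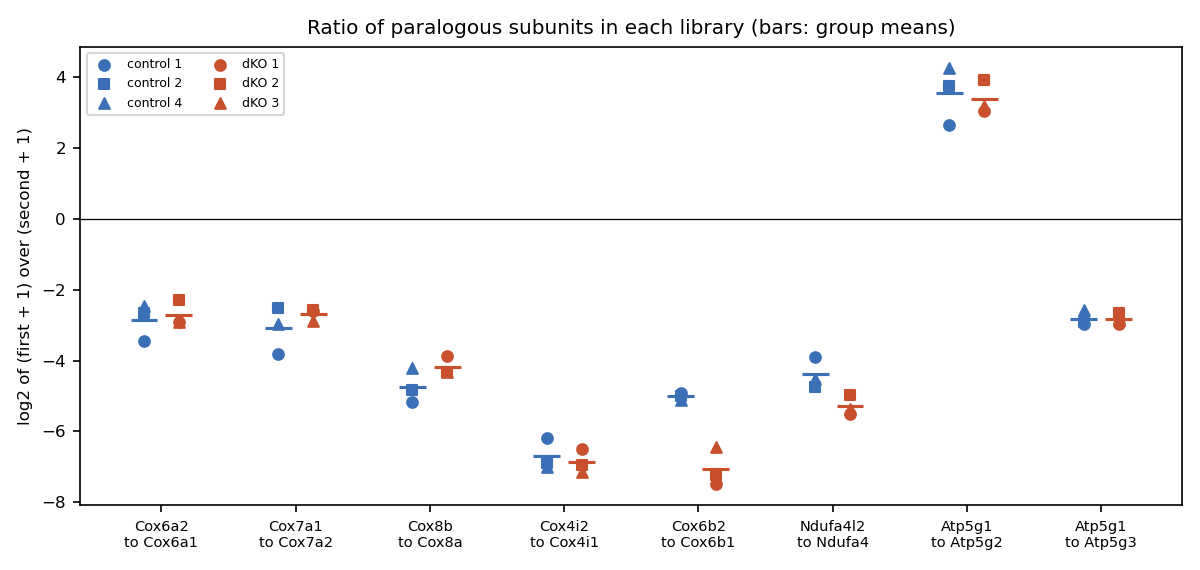
Log2 ratio of 8 pairs of paralogous genes in each library (points, controls blue, dKO red, shape by library number) with group means (bars). The groups are separate for Cox6b2 to Cox6b1 and Ndufa4l2 to Ndufa4, and overlap for the other 6 pairs.

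Cardiomyocyte markers moved with the members. All 20 were measured, 18 rose and the median change was 1.71. Their summed level was 6229.6, 13953 and 13538 in controls 1, 2 and 4 and 34447, 35225 and 32650 in dKO 1, 2 and 3, where the dKO mean is 3.03 times the control mean, against 1.84 times for the 82 nuclear members. Control 1 was again the lowest library. For each unit of summed marker level, nuclear members stood at 1.44, 1.07 and 1.10 in the controls against 0.761, 0.642 and 0.698 in the dKO libraries, so relative to these markers the members were lower in all 3 dKO libraries. The mean of log2(value + 1) over the markers, 6.91, 7.99 and 8.04 against 9.49, 9.19 and 9.25, did not overlap between the groups, so this score and genotype cannot be told apart. With the score as a covariate in limma 0 of the 82 nuclear members rose and 0 fell, where 0.406% of all genes rose and 1.51% fell. The median change was then -0.35, the median SE went from 0.23 to 0.32, and 72 of the 82 changes were below 0. At an unadjusted p under 0.05, 0 were higher and 11 lower, where 4.86% of all genes were higher and 7.95% lower. In this fit mt-Atp6 was lower (-2.09, limma adjusted p = 0.0369). Of the normalised read counts of mt-Atp6 and its identical copy Gm10925 together, mt-Atp6 held only 8.77% to 17.1%. The score was not fitted with that copy added. A count model with the score was not run.

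Markers of other cell types also moved, in a fit where 9.81% of all genes rose and 12.2% fell. Of 10 mural markers 7 rose, of 10 fibroblast markers 8 fell, of 10 macrophage markers 4 fell and of 12 epicardial markers 12 fell. Summed, the mural markers ran from 720.2 to 1120.5 in the controls and 2094 to 2264 in the dKO libraries, and the fibroblast markers from 29735 to 34011 and from 13587 to 16805. Of 10 endothelial markers 1 fell. Of the other tissues rich in mitochondria, skeletal muscle had 6 of 10 markers measured and 2 rose (Acta1 and Ckm, both also expressed in the heart), while the fast troponin gene Tnni2, at 1.39, 4.05 and 4.603 against 6.37, 3.96 and 12.0, did not pass (log2 change 0.94), nor did Myh8, Mylpf and Tnnt3, at 3.37 or below in every library. Brown fat had 4 of 8 markers measured and 1 rose, Prdm16. Of 8 erythroid markers measured 0 passed with limma, 1 being higher at an unadjusted p under 0.05, and 0 with edgeR or DESeq2. With control 1 and dKO 1 left out, 6 mural and 4 erythroid markers rose and 12 epicardial, 8 fibroblast, 5 macrophage and 4 endothelial markers fell, while in skeletal muscle 1 rose and in brown fat 1 rose and 2 fell. Every marker measured had reads in all 6 libraries. The part of these other cell types in the result was not tested.

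**Figure D4:**
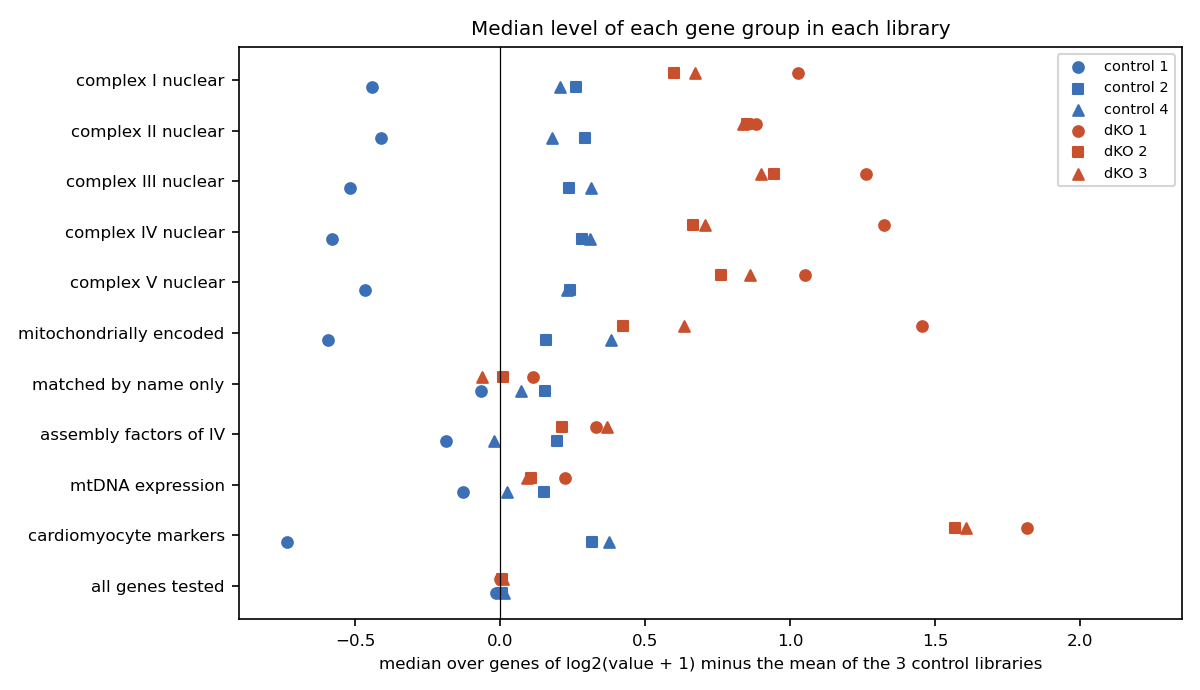
Median over the genes of each group of log2(value + 1) minus the mean of the 3 controls, in each library (controls blue, dKO red, shape by library number). In each complex and in the mitochondrially encoded genes control 1 is the lowest and dKO 1 the highest library, of the groups drawn the cardiomyocyte markers are the farthest from 0 in the dKO libraries, and the genes matched by name only overlap.

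The members did not all share the excess of dKO 1. Over the 82 nuclear members, dKO 1 lay above the mean of dKO 2 and 3 in 76, by a median of 0.36 log2 units. It was lower in Atp5b (-0.30), Uqcrc2 (-0.26) and Sdha (-0.19), with 4237, 2552 and 4126 annotated exonic bases. It was higher by 1.23 in Cox4i2, 1.08 in Cox8b, 0.99 in Uqcr11 and 0.93 in Cox6a1, with 788, 360, 641 and 702. These genes are the extremes of the order, taken after their values were seen. Control 1 lay below the mean of controls 2 and 4 in 79 of 82, by a median of 0.71, with the widest gap in Cox7a1 (-1.83). Across the 82 genes, the difference of dKO 1 had a Pearson correlation of -0.35 and a Spearman correlation of -0.31 with log2 exonic length, and that of control 1 had 0.20 and 0.21. All points share the same few libraries, so this is a description. The same correlations over 8491 annotated genes above 10 in every library were -0.35 and -0.34 for dKO 1 and 0.30 and 0.31 for control 1, so a slope of about this size was present in the rest of the table too.

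**Figure D5:**
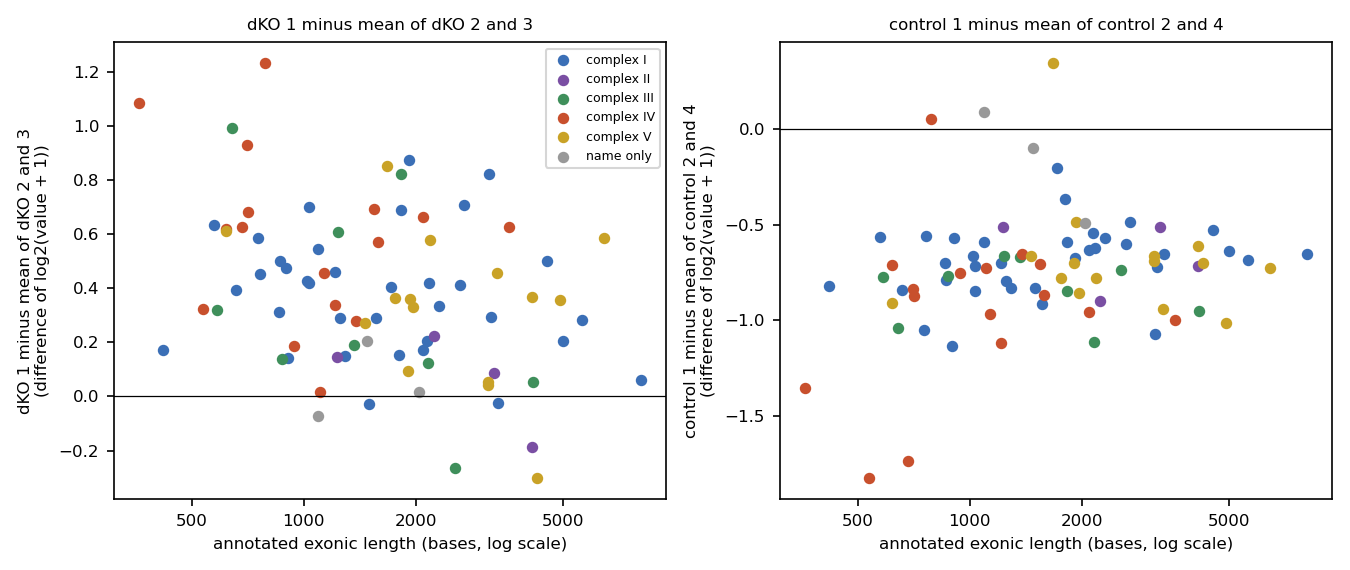
Difference of dKO 1 from the mean of dKO 2 and 3 (left) and of control 1 from the mean of controls 2 and 4 (right), on log2(value + 1), against annotated exonic length (log axis) for the 82 nuclear members, coloured by complex. Most points lie above 0 on the left, where short genes reach 1.23 and Atp5b is at -0.30, and below 0 on the right.

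Genes that build or regulate the complexes were examined as lists. Of 50 assembly factors measured 12 rose, where 9.81% of all genes did, with a median of 0.44: 6 of 16 for complex I, 0 of 4 for complex II (also 0 at an unadjusted p under 0.05 and 0 with edgeR or DESeq2), 2 of 6 for complex III, 3 of 21 for complex IV and 1 of 3 for complex V. None fell. Acad9, Foxred1 and Ndufaf7, which act in the assembly of complex I, rose by 0.69, 0.86 and 0.65, and Uqcc1 and Lyrm7, of complex III, by 0.67 and 1.19. Cox10 and Cox15, which make the haem A of complex IV, rose by 0.92 and 0.47, and its translational activator Taco1 by 0.86. Atpaf2, a chaperone of F1, rose by 0.77. Without control 1 and dKO 1 the counts were 4 of 16, 0 of 4, 2 of 6, 2 of 21 and 0 of 3. Sdhaf1, Sdhaf4 and Sdhaf2, of complex II, changed by 0.53, 0.42 and 0.03.

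For the counts of the next lists, the share over all genes was again 9.81% that rose and 12.2% that fell. Of 13 genes of ubiquinone synthesis 7 rose, among them Coq8a, from 11.5, 20.1 and 24.5 to 47.2, 41.0 and 43.6 (log2 change 1.25, SE 0.24, limma adjusted p = 0.00484), Coq3 (1.18) and Coq6 (0.91). Cytochrome c, encoded by Cycs, rose from 59.1, 150.3 and 103 to 181, 189 and 184 (log2 change 0.92, SE 0.26, limma adjusted p = 0.0315), and the ATP synthase inhibitor Atpif1 did not pass (0.33). Higd2a, 2010107E04Rik and Ndufab1, subunits or supercomplex factors that the symbol rule missed, rose by 0.73, 0.77 and 0.68, as did all 5 of their list, of which 1 rose without control 1 and dKO 1. Of 17 genes that copy, transcribe or stabilise mitochondrial DNA and its RNA 3 rose, and their median was 0.08. They were Lrpprc, which stabilises mitochondrial messages, from 88.7, 110 and 124 to 218, 217 and 205 (0.995, SE 0.14), the mitochondrial RNA polymerase gene Polrmt (0.97) and the helicase gene Twnk (0.45). Among 12 nuclear regulators of the pathway 4 rose. The coactivator gene Ppargc1a went from 21.7, 45.2 and 47.3 to 97.1, 138 and 101 (log2 change 1.59, SE 0.27, limma adjusted p = 0.00247). The oestrogen-related receptor genes Esrrg and Esrra rose by 1.74 (SE 0.23) and 1.53 (SE 0.28). No dKO library overlapped a control in these 3 genes.

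Since the nuclear members moved together, their promoters were searched for 5 short motifs of factors known from this pathway, from muscle or from the deleted genes. RefSeq promoters (GRCm38.p6, 250 bases before to 50 after the start) were found for 67 of the 82 genes, 72 windows in all, and compared with all 32851 windows of that length. Both strands were searched, and matches may overlap. The NRF1 core (GCGCANGCG) was in 29.2% of member windows and 6.25% of all windows, the ETS core bound by Gabpa (CCGGAAG) in 22.2% and 8.86%, and the half-site of oestrogen-related receptors (AAGGTCA) in 11.1% and 4.72%. The MEIS core (TGACAG) was in 20.8% and 19.2%, and the MEF2 core (TAAAAATA) in 0 of 72 member windows and 2.72% of all. No test was made, and a match is not a bound site. The windows were not matched for base composition, and members that rose were not separated from the rest. Among the genes of these factors, Nrf1 and Gabpa did not pass (log2 changes 0.14 and 0.06, limma adjusted p = 0.587 and 0.765), whereas Esrra rose. The 100-base windows below, with matches in capitals, show the arrangement in genes described above: Cox6a1 with NRF1 cores, Atp5g3 with an oestrogen-related receptor half-site and a MEIS core, Uqcr11 with an ETS core, and the muscle isoforms Cox7a1 and Cox8b with a MEIS core. They lie upstream of the RefSeq start, on chr5:115349024-115349123 (minus strand), chr2:73911327-73911426 (minus), chr10:80406832-80406931 (minus), chr7:30184026-30184125 (plus) and chr7:140900447-140900546 (minus), in no annotated exon.
Cox6a1: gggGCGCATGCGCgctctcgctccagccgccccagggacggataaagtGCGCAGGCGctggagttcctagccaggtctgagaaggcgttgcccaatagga
Atp5g3: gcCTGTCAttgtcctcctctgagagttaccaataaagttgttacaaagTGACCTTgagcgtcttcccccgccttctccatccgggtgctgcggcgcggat
Uqcr11: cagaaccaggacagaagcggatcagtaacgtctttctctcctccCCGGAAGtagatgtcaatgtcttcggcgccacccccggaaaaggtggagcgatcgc
Cox7a1: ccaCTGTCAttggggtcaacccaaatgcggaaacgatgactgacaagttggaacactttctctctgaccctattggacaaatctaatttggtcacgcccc
Cox8b: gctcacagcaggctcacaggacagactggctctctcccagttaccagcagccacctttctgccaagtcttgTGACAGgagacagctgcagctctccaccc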

How the data were processed

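The deposited table holds normalised read counts for 14549 genes in 6 libraries made from 40 ng of total RNA each by poly(A) selection, with a kit not stated to keep strand. The submitters' processing notes name cutadapt, RSEM 1.3.1 and GRCm38; the labels state neither the annotation release nor the normalization and gene filter. The signal values in the table deposited by the authors proved to be whole reads with 0.5 added, divided by a library size scaled by TMM: 100% of the 87294 values came out whole within 0.01 reads. One read was worth 0.0487 to 0.0740. The test was limma 3.58.1 (R 4.3.3) with a variance trend on log2(value + 1), which understates the change of low genes, with 3 libraries a group, Benjamini-Hochberg adjustment over 14549 genes and a threshold of 0.05. A filter at 1 in at least 3 libraries removed no gene. edgeR 4.0.16 and DESeq2 1.42.0 were run on the recovered reads. Only the main limma fit was tested on simulated data, which held no outlying library. Isoform ratios had exact permutation tests over the 6 libraries. Members and lists were chosen with earlier results of these data known. Named were all mitochondrially encoded members, both genes of each isoform pair, for each complex the 3 nuclear members with the largest and the 2 with the smallest change, every member that fell, and from each further list the 3 genes with the smallest p. Genes named for another reason were chosen after their values were seen. Exonic lengths, coordinates and copies came from GENCODE M21 on GRCm38 and promoters from RefSeq on GRCm38.p6. Exonic length counts all annotated exons and can far exceed a single transcript: in Atp5l it is 6443 bases, where the longest coding transcript has 544. Because the counting of strand is not stated, reads of overlapping genes cannot be told apart. Among members that rose, the share of exonic bases that overlap other genes was largest in Atp5o (47.9%), Ndufb6 (39%), Ndufa13 (30.0%), Uqcrc2 (19.75%) and Ndufb9 (19.5%). Alternatives changed the pseudocount, filter, variance model, normalization, test, libraries and covariate.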

Additional observations from a re-analysis of the deposited data

How the results depend on the processing

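The 61 nuclear members that rose became 28 with no variance trend and 28 with the replicate block, 26 to 59 when 1 library was left out, and 0 when the cardiomyocyte score was a covariate. The count was higher in other fits: 69 with DESeq2, 64 with equal totals of nuclear genes and 62 with quantile normalization. Over all genes, 8.08% rose without dKO 1, which left 26 members, 6.17% without dKO 3, which left 40, and 0.406% with the score. In fits whose share is given nowhere above, it was not counted, so their counts here cannot be set against all genes. The 1 that fell, Cox6b2, became 0 with a filter at 5, which removed the gene, 0 with quantile normalization, 0 with the replicate block, 0 with the score, and 0 to 1 when 1 library was left out. The 1 mitochondrially encoded gene that rose became 2 with the filter at 5, 3 with quantile normalization, 2 with equal totals of nuclear genes, 2 with the replicate block, 2 with edgeR, 8 with DESeq2, and 1 to 2 when 1 library was left out; with the copies added, with or without control 1 and dKO 1, and with the score it was 0. With the score 1 of the mitochondrially encoded genes was lower, mt-Atp6 at -2.09, counted without its identical copy Gm10925. Of the 61 nuclear members that rose, 52 turned below 0 with the score, 20 of 25 in complex I, 3 of 4 in complex II, 8 of 8 in complex III, 10 of 10 in complex IV and 11 of 14 in complex V. Among the genes of the naming rule these were in complex II Sdhb -0.29, Sdhc -0.015 and Sdhd -0.078; in complex III Cyc1 -0.45, Uqcr10 -0.072, Uqcr11 -0.61 and Uqcrh -0.29; in complex IV Cox4i1 -0.28, Cox5a -0.32, Cox6a1 -0.44, Cox6b1 -0.58, Cox7a1 -1.39, Cox7a2 -0.26, Cox8a -0.47 and Ndufa4 -0.29; in complex V Atp5g1 -0.54, Atp5g3 -0.28, Atp5j -0.26 and Atp5k -0.39. The causes were not tested. The labels do not say that library numbers mark pairs, only the numbers 1 and 2 occur in both groups, and same-numbered libraries deviated from their group means with correlations of -0.18 and -0.20. The block therefore has no basis in the design, and it leaves fewer degrees of freedom. For the isoform ratios each alternative kept the direction or moved the difference by less than the spread between libraries.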
